A study of Mus musculus with 6 samples.

Results

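The chemokine and chemokine receptor genes were examined in tumours of Hep1-6, a mouse hepatoma cell line, taken from mice on 2 diets. Members were the genes of the CC, CXC, C and CX3C chemokine families and their receptors, picked by gene symbol alone (Ccl, Cxcl, Ccr, Cxcr or Ackr with a number, plus Xcl1, Xcr1, Cx3cl1, Cx3cr1 and Ccrl2). They made up 67 of 34745 gene rows: 44 rows of ligands, 18 of signalling receptors and 5 of atypical receptors. These rows carried 62 distinct symbols, because Ccl21a, Ccl21c and Ccl27a occurred on more than 1 row. The cells had been grown in DMEM with FBS and were injected under the skin of C57BL/6J mice. The host mice received a high cholesterol diet (HCD, 3 tumours) or a normal diet (ND, 3 tumours). Hep1-6 is a single line, so all 6 tumours share 1 tumour cell origin. The labels give neither the age of the mice nor the length of the diet, and they do not state that each tumour came from a separate animal. All p-values therefore measure the spread between these samples.

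Chemokines are small secreted proteins that attract leukocytes, and they signal through G protein-coupled receptors on the cells they attract. In tumours, interferon-induced CXC ligands draw T cells and natural killer cells that carry Cxcr3. The inflammatory CC ligands draw monocytes and T cells, and the ELR CXC ligands (named after a short amino acid motif before the first cysteines) draw neutrophils that carry Cxcr2. Atypical receptors bind chemokines without the usual G protein signal and clear or hold them.

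Levels are FPKM, the fragments of a gene scaled to the length of the gene and the size of the library. The library sizes recovered from the steps in these values were 20351636 to 20918324 fragments in the HCD libraries and 20622727 to 26228073 in the ND libraries, and 1 FPKM of a 2 kb gene corresponded to 40.7 to 52.5 fragments. Albumin (Alb) stood at 1176 to 1672 FPKM in HCD tumours and at 1272 to 1553 FPKM in ND tumours. The hepatocyte products Trf and Serpina1a were under 1 FPKM in all 6 libraries, so only some hepatocyte markers were present. Skeletal muscle markers summed to 765, 78.0 and 6.33 FPKM in HCD 1, HCD 2 and HCD 3, and to 4.93, 635 and 11.5 FPKM in ND 1, ND 2 and ND 3. Muscle RNA was thus high in HCD 1 and ND 2, 1 library of each diet. Correlations of log2 values between pairs of libraries were 0.960 to 0.986. The labels and notes do not tell whether reads were counted by strand, so a gene and an overlapping gene on the other strand cannot be separated.

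The members spanned a wide range of levels. A gene was tested where its mean over the 6 libraries was at least 0.5 FPKM, which 44 of the 67 members reached (30 ligands, 12 signalling receptors and 2 atypical receptors). Of the 23 that did not, 3 were listed at 0 in every library and the highest, Xcl1, averaged 0.487 FPKM. Cxcl9, a ligand of Cxcr3 induced by interferon gamma, was the most abundant member with a mean of 116 FPKM over all libraries. It was followed by Ccl8 (89.8 FPKM), Ccl6 (32.0 FPKM), Cxcl15 (23.1 FPKM), Cxcl3 (20.8 FPKM) and Cxcl10 (20.1 FPKM). Cxcl9 and Ccl8 together made up 43.2%, 51.2% and 41.6% of the summed ligand FPKM in HCD 1 to 3, and 28.3%, 37.8% and 46.9% in ND 1 to 3. The receptors were lower. Ccr1 had the highest mean among them (10.3 FPKM), and Cxcr6 (5.84 FPKM) and Cxcr4 (5.38 FPKM) were also well detected.

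The deposited values understate some of these levels. For 33 of the 44 tested members the gene length behind the FPKM matched the sum of all distinct annotated exons, overlapping exons included. In 20 of those 33 this sum exceeded the length of the merged exons, by a factor of up to 2.49 for Cxcl2. Per merged length, Cxcl9 averaged 125 FPKM, Ccl8 89.8 FPKM, Ccl6 45.4 FPKM and Cxcl10 42.6 FPKM, so Cxcl10 moved ahead of Cxcl3 (26.9 FPKM) and Cxcl15 (23.1 FPKM). The length is the same in every library, so a gene's ratio between tumours does not depend on it. It does bear on which genes reached 0.5 FPKM (Cxcl11 averaged 0.468 FPKM as deposited and 0.638 per merged length) and on the log2(FPKM + 1) differences of low genes.

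**Figure D1:**
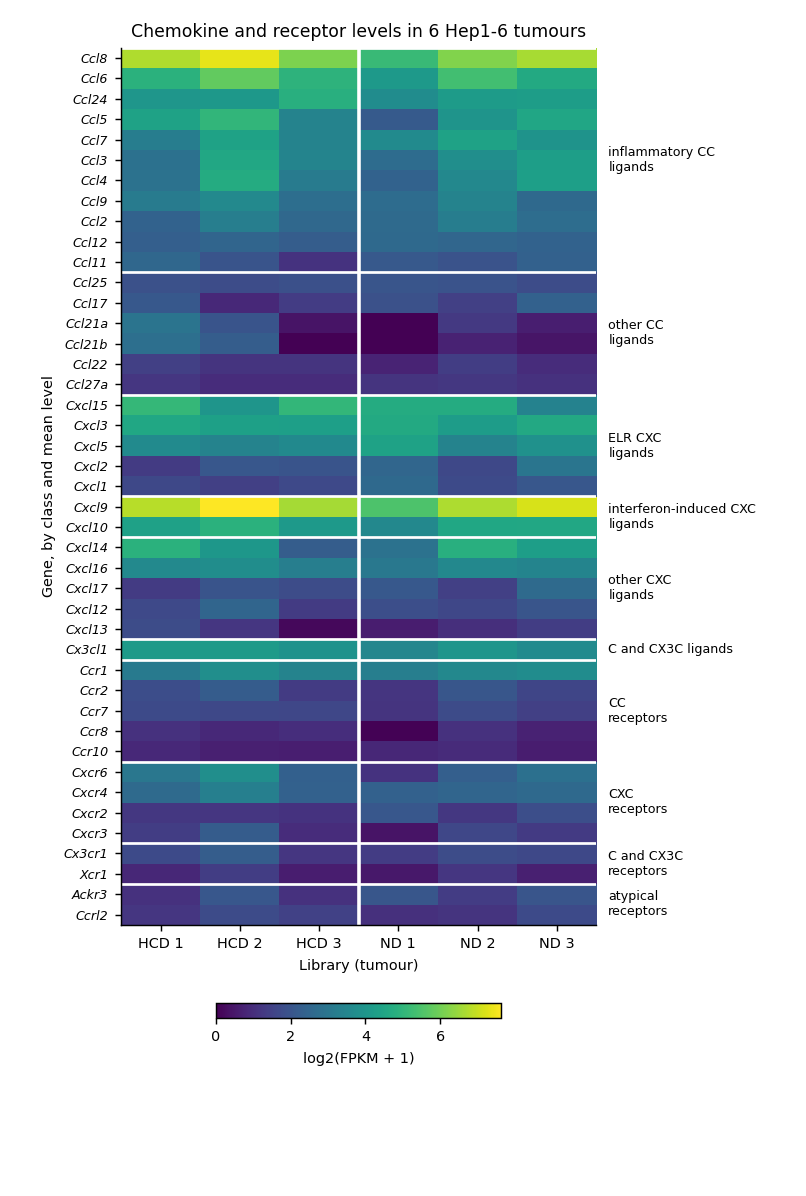
Level of 43 of the 44 tested chemokine and receptor genes (rows, by class and then by mean level) in each library (columns, HCD tumours left and ND tumours right), as log2(FPKM + 1) on the colour scale. Cxcl9 and Ccl8 are the brightest rows, HCD 2 has the highest value of 20 rows drawn, and ND 1 has the lowest value of 19.

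Against this range, no member differed between the diets at an adjusted p under 0.05 in limma's test on log2(FPKM + 1), and neither did any other gene (0% of 13417 tested). Adjusted p-values of the members ran from 0.794 to 0.996. At an unadjusted p under 0.05 there were 3 of 44 members (6.82%), beside 5.88% of all tested genes. Of these, 1 was higher in HCD tumours (2.27%, beside 2.56% of all genes) and 2 were lower (4.55%, beside 3.32%). The count of 3 became 0 without HCD 1, without ND 1 or without ND 3, and 9 without ND 2. Over all genes the count was 640 of 13358 without HCD 1. The share over all genes without ND 2 is not given here, so the 9 is not a result about the members. A higher mean in HCD tumours was found for 27 of 44 members (61.4%), beside 55.7% of all genes. The median difference (HCD minus ND) was 0.16 for the members and 0.02 for all genes on that log2 scale.

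The spread between tumours of the same diet was wide for these genes. The highest library exceeded the lowest by a median of 2.90 times among the tested members, not counting genes at 0 in a library, against 1.33 times among all tested genes. Within HCD tumours that ratio was 2.02 and within ND tumours 2.16. The 95% intervals of the members extended a median of 0.711 log2 units to either side, against 0.233 for all genes, and 21 of the 44 lay wholly within 1 log2 unit of no difference. For the other 23, the unadjusted interval reached past 1 log2 unit in at least 1 direction, so a difference of that size was not excluded.

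A pair of libraries stood at the ends of the range. HCD 2 was the highest library for 21 of 44 members (47.7%), beside 24% of all genes, and ND 1 was the lowest for 20 of 44 (45.5%), beside 27% of all genes. Without HCD 2, 21 of 45 members had a higher mean in HCD and their median difference was -0.035. Without ND 1 the count was 23 of 46 and the median -0.0042. The summed ligand level was 497, 701 and 397 FPKM in HCD 1 to 3, and 280, 464 and 517 FPKM in ND 1 to 3, so the HCD and ND tumours overlapped.

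**Figure D2:**
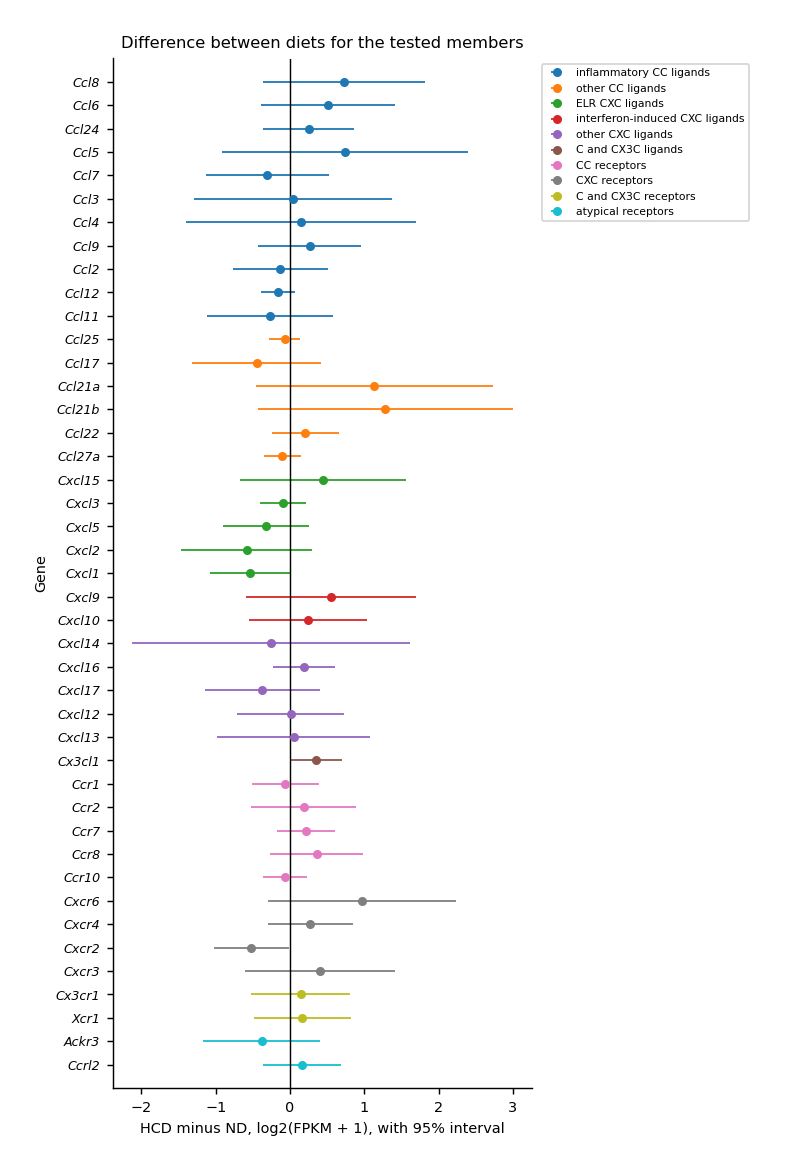
Difference between the diets (HCD minus ND, in log2(FPKM + 1) units) for 43 of the 44 tested genes, coloured by class, with limma's unadjusted 95% interval. Of the intervals drawn, only those of Cx3cl1, Cxcl1 and Cxcr2 exclude 0, the first to the right and the other two to the left.

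The interferon-induced CXC ligands Cxcl9, Cxcl10 and Cxcl11 lie together on chromosome 5 (GRCm38, chr5:92321347-92365485). Cxcl9 and Cxcl10 are annotated as protein-coding and bind Cxcr3, whereas Cxcl11 is annotated in GENCODE M21 as a polymorphic pseudogene. The bases upstream of the RefSeq starts of Cxcl9 and Cxcl10 are shown because these genes led the CXC family in level per merged exon length. They are given 5′ to 3′ on the gene's strand (GRCm38.p6, RefSeq), and capitals mark matches to an NF-kappaB motif (GGGA and TTCC with any 2 bases between them) or an interferon-stimulated response element (GAAA and GAAA with any 2 bases between them).
Cxcl9 (chr5:92328080-92328299, minus strand): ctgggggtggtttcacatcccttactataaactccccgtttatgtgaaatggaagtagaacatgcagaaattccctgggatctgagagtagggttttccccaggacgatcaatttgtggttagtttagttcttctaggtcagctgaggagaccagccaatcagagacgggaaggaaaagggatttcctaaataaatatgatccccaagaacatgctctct
Cxcl10 (chr5:92348890-92349109, minus strand): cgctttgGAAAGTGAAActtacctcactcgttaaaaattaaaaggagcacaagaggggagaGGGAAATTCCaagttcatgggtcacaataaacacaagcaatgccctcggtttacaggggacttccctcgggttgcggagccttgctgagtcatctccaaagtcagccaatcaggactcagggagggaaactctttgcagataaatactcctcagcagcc
Both motifs and the gamma interferon motif (TTC and GAA with any 3 bases between them) were searched on both strands in the 250 bases before and 50 after the starts. Of all 32851 such windows in the mouse table, 1.47%, 3.44% and 8.3% held the NF-kappaB, response element and gamma interferon motifs. Cxcl10 held the response element 213 bases and the NF-kappaB motif 159 bases before its start, and Cxcl9 had no match to these letters in its window. A match is a run of letters and was not tested for binding. Only these exact letters were searched, so a window without a match may still hold an element of another form.

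Cxcl9 had 111, 198 and 96.4 FPKM in HCD 1 to 3, against 44.5, 104 and 144 FPKM in ND 1 to 3. The highest value was in HCD 2 and the lowest in ND 1, while the other 4 tumours lay between them with the diets mixed. The difference was 0.55 ± 0.47 log2 units (SE, 3 tumours each, limma adjusted p = 0.813), and it ranged from 0.07 without ND 1 to 0.91 without ND 3. Cxcl10, which attracts the same cells, had 19.7, 28.6 and 16.6 FPKM in HCD tumours and 10.7, 22.2 and 23.0 FPKM in ND tumours, with a difference of 0.24 ± 0.33 log2 units (SE, limma adjusted p = 0.870). Here too HCD 2 was highest and ND 1 lowest. Cxcl11 stayed below the level needed for testing, at 0.360 to 0.492 FPKM in HCD and 0.237 to 0.647 FPKM in ND tumours.

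Their receptor Cxcr3, carried by activated T cells and natural killer cells, had 1.59, 3.62 and 0.967 FPKM in HCD tumours, against 0.328, 2.11 and 1.46 FPKM in ND tumours. These values rest on 56, 128 and 35 fragments in HCD and on 13, 96 and 52 in ND libraries. HCD 2 was highest and ND 1 lowest, as for both ligands, and the difference of 0.40 ± 0.42 log2 units did not pass the test (SE, limma adjusted p = 0.840). Averaged over the 6 libraries, the FPKM of Cxcl9 was 69.2 times that of Cxcr3 and that of Cxcl10 12 times. Per merged exon length these ratios were 74.7 and 25.4.

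Cxcr6 marks tissue-dwelling T cells and natural killer T cells, and Cxcl16 is its ligand. Cxcr6 had 7.22, 12.6 and 4.07 FPKM in HCD tumours, against 1.18, 3.93 and 6.07 FPKM in ND tumours. Its difference of 0.97 ± 0.52 log2 units was the largest among the receptors, yet HCD 3 lay below ND 3 and the test was not passed (SE, limma adjusted p = 0.794). Cxcl16, made as a membrane-bound protein by macrophages and other cells, was steadier at 11.1, 12.3 and 8.71 FPKM in HCD and 7.27, 10.8 and 9.88 FPKM in ND tumours. The ligand differed by 0.19 ± 0.17 log2 units (SE, limma adjusted p = 0.824), and both genes peaked in HCD 2 and were lowest in ND 1.

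**Figure D3:**
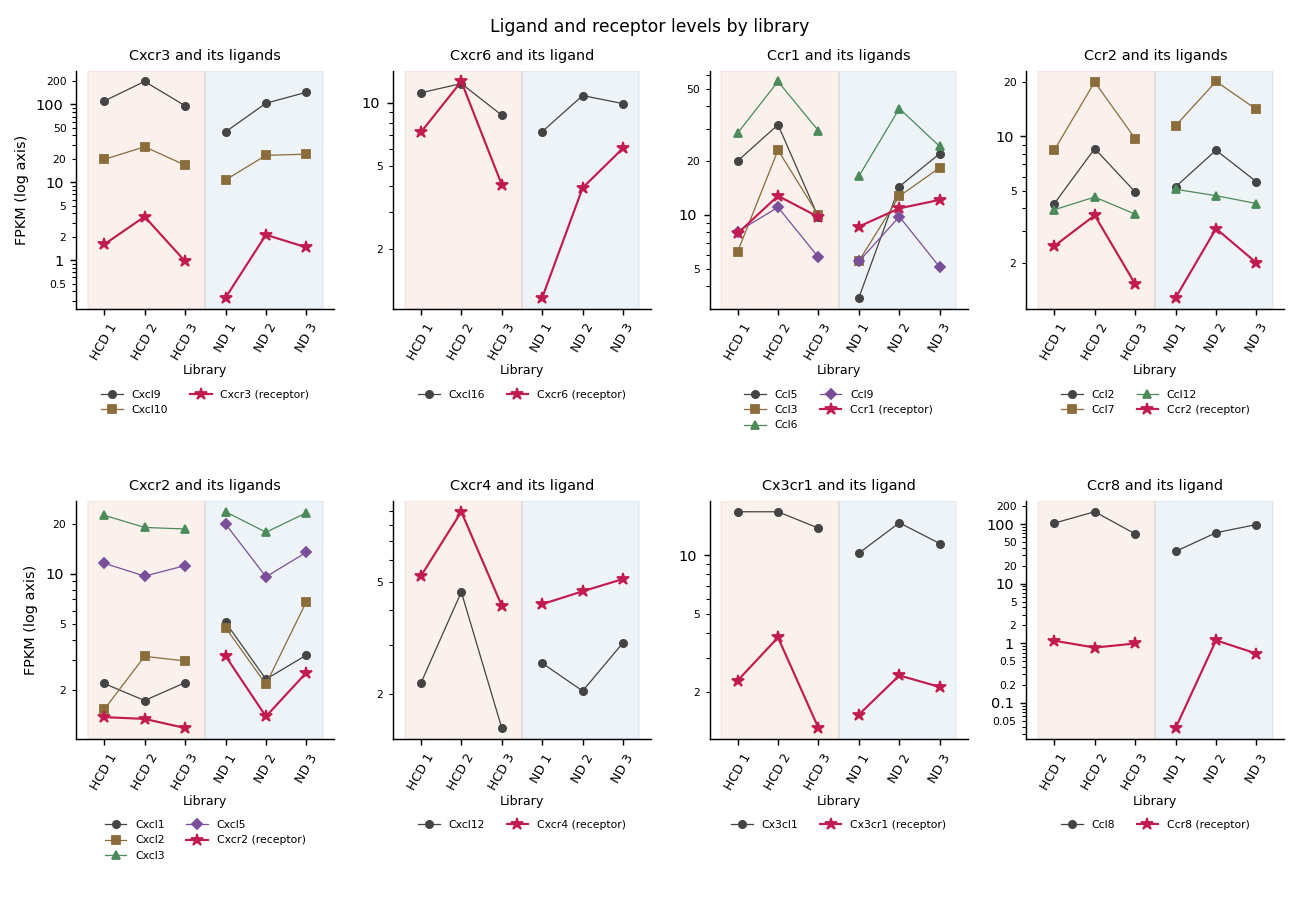
FPKM (log axis) of 8 receptors (stars) and their ligands (other symbols) in each library, with HCD tumours left and ND tumours right in each panel; lines only join the points of a gene within a diet. Cxcl9, Cxcl10 and Cxcr3 are all highest in HCD 2 and lowest in ND 1, whereas Cxcr2 is lower in each HCD tumour than in any ND tumour.

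T cell markers varied across the libraries beside these genes. All 10 listed T cell genes had a higher mean in HCD tumours, none of them past the adjusted threshold, with a median difference of 0.66 log2 units. Their summed level was 47.8, 70.9 and 28.0 FPKM in HCD 1 to 3 and 9.19, 34.3 and 40.2 FPKM in ND 1 to 3. The natural killer list summed to 3.41, 5.06 and 2.53 FPKM in HCD and to 1.17, 2.69 and 2.83 FPKM in ND tumours. HCD 2 was highest and ND 1 lowest in both lists, and no listed T cell or natural killer gene was at 0 in any library. The part of these cells in the chemokine and receptor values was not tested, and in bulk RNA fewer cells of a type and less RNA per cell cannot be told apart.

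The inflammatory CC ligands attract monocytes, macrophages, T cells and eosinophils. Of 12 listed, 11 were tested; 7 averaged higher in HCD tumours and 4 averaged lower, with a median difference of 0.15 log2 units. Ccl8, which signals through Ccr8 in the mouse, had 104, 161 and 68.6 FPKM in HCD tumours, against 34.8, 71.7 and 98.4 FPKM in ND tumours. HCD 3 fell below ND 2 and ND 3, and the difference was 0.73 ± 0.45 log2 units (SE, limma adjusted p = 0.794). Its receptor Ccr8, a marker of regulatory T cells in tumours, stood at 1.11, 0.847 and 0.993 FPKM in HCD and at 0.0379, 1.12 and 0.671 FPKM in ND tumours. Ccr8 was thus nearly absent from ND 1 alone, and its difference was 0.36 ± 0.26 log2 units (SE, limma adjusted p = 0.796).

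Ccl6, a ligand of Ccr1 in the mouse, had 28.4, 55.1 and 29.3 FPKM in HCD tumours, against 16.4, 39.0 and 24.0 FPKM in ND tumours. HCD 2 was highest and ND 1 lowest, with the 4 others between (difference 0.51 ± 0.37 log2 units, SE; limma adjusted p = 0.796). Ccl24, an eosinophil attractant, reached 15.1, 15.9 and 27.4 FPKM in HCD and 12.2, 17.3 and 17.9 FPKM in ND tumours. Only HCD 3 stood clear of the ND values, and the difference was 0.25 ± 0.25 log2 units (SE, limma adjusted p = 0.832). The eosinophil receptor Ccr3, to which Ccl24 binds, averaged only 0.206 FPKM and was not tested.

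Ccl3, Ccl4 and Ccl5 attract T cells, monocytes and macrophages. Ccl5, a product of T cells and natural killer cells, had 19.9, 31.7 and 9.68 FPKM in HCD tumours and 3.46, 14.4 and 21.9 FPKM in ND tumours. The ranges of Ccl5 overlapped widely, since HCD 3 lay below ND 2 and ND 3, and its difference of 0.74 ± 0.68 log2 units was close to its error (SE, limma adjusted p = 0.825). It was 0.05 without ND 1 and 1.23 without ND 3. Ccl3 had 6.22 to 22.9 FPKM in HCD and 5.54 to 18.3 FPKM in ND tumours, and Ccl4 had 6.33 to 25 FPKM in HCD and 4.31 to 18.9 FPKM in ND tumours. Both were highest in HCD 2 and lowest in ND 1, the same libraries as Ccl5, and their differences were 0.04 and 0.15 log2 units.

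The ligands of Ccr2, the receptor that brings monocytes into tissue, did not share its direction. Ccr2 had 2.48, 3.66 and 1.53 FPKM in HCD tumours and 1.28, 3.1 and 2.00 FPKM in ND tumours, a difference of 0.18 ± 0.29 log2 units (SE, limma adjusted p = 0.890). Ccl2, the main monocyte attractant, had 4.25, 8.57 and 4.93 FPKM in HCD tumours and 5.27, 8.39 and 5.61 FPKM in ND tumours. HCD 2 and ND 2 gave nearly the same high value and the other tumours lay close together, with a difference of -0.13 ± 0.26 log2 units (SE, limma adjusted p = 0.914). Ccl7 and Ccl12, further ligands of Ccr2, differed by -0.30 and -0.16 log2 units. Ccr2 turned to a lower mean in HCD without HCD 2 (-0.035) or without ND 1 (-0.024), and Ccl2 to a higher one without HCD 1 (0.045) or without ND 2 (0.053).

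Ccr1, a receptor of monocytes and neutrophils, had 7.88, 12.7 and 9.73 FPKM in HCD tumours and 8.6, 10.9 and 12.1 FPKM in ND tumours. The diets overlapped throughout, and the difference was -0.06 ± 0.19 log2 units (SE, limma adjusted p = 0.940). Its ligand Ccl9 differed by 0.26 log2 units and had a mean of 0.731 times that of Ccr1; among pairs with both genes tested, Ccl21b was the other CC ligand below its receptor. Macrophage and monocyte markers summed to 608, 1022 and 427 FPKM in HCD 1 to 3 and to 259, 618 and 504 FPKM in ND 1 to 3. Of these 10 genes 9 had a higher mean in HCD tumours, with a median difference of 0.41 log2 units and none past the adjusted threshold. All 10 were above 0 in every library, and their part in the CC ligand and receptor levels was not tested.

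Neighbouring CC genes differed in direction. The ligands Ccl5, Ccl9, Ccl6, Ccl3 and Ccl4 lie within chr11:83525778-83664683, and all 5 had a higher mean in HCD tumours and their highest value in HCD 2. A second group on the same chromosome, chr11:82035571-82305690, holds Ccl2, Ccl7, Ccl11, Ccl12, Ccl8 and the untested Ccl1. Of its 5 tested genes 4 had a lower mean in HCD tumours, and the exception was Ccl8. Positions are from GENCODE M21 on GRCm38, and neighbours in these groups share a tumour's cell makeup, so they are not independent measurements.

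The ELR CXC ligands, which attract neutrophils, went the other way on average. Of the 5 genes taken in by the name rule 4 had a lower mean in HCD tumours and 1 a higher, with a median difference of -0.32 log2 units. The related chemokine Ppbp, outside that rule, averaged 16.4 FPKM. It was higher in HCD tumours by 0.20 log2 units and lowest in ND 1 (10.5 FPKM). The 5 genes lie within chr5:90759360-90905938, on the chromosome of the Cxcl9 group. Of them, Cxcl1, Cxcl3 and Cxcl5 were highest in ND 1, the library in which Cxcl9 and Cxcl10 were lowest. The upstream bases of 4 of them are printed in the same form, since 3 of the 4 carry the same NF-kappaB letters at a like distance and 1 does not. Those of Cxcl5 are not printed.
Cxcl1 (chr5:90891025-90891244, plus strand): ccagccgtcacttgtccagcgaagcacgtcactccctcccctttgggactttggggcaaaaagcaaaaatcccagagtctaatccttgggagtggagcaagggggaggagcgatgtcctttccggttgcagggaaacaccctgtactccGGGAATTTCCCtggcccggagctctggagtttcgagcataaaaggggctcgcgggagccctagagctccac
Cxcl2 (chr5:90903679-90903898, plus strand): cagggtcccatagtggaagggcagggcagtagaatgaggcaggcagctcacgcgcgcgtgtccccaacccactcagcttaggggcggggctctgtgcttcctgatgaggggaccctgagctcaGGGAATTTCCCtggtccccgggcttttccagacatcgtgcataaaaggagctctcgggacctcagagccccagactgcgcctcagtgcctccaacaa
Cxcl3 (chr5:90785881-90786100, plus strand): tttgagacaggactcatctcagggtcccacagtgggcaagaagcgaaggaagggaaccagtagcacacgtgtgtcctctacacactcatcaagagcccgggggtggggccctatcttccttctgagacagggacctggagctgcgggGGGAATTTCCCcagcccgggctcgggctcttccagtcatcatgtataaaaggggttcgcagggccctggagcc
Cxcl15 (chr5:90794314-90794533, plus strand): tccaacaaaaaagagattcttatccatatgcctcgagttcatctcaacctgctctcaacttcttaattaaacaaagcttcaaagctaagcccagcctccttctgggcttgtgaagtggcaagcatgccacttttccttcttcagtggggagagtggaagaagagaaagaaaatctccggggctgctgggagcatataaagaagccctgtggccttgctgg
The match began 71, 97 and 73 bases before the start in Cxcl1, Cxcl2 and Cxcl3, and each holds the motif on both strands, 1 base apart, in the same 11 letters. Among 46 member genes with a promoter window, 6 held the NF-kappaB motif (Ccl1, Ccr3, Cxcl1, Cxcl10, Cxcl2 and Cxcl3). Counted by window this was 6 of 55 member windows, beside the 1.47% of all windows. The response element was found in Ccl19, Cxcl10 and Cxcl14, in 3 of 55 member windows beside 3.44% of all windows. The gamma interferon motif was found in Ccl17, Ccr6 and Cxcl14, in 3 of 55 beside 8.3%. Cxcl15 had no match to any of these letters.

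Cxcl1, a neutrophil attractant, had 2.17, 1.72 and 2.20 FPKM in HCD tumours, against 5.10, 2.31 and 3.23 FPKM in ND tumours (125, 99 and 130 fragments, against 329, 171 and 188). Every HCD tumour lay below every ND tumour, though HCD 3 and ND 2 nearly touched. The difference was -0.54 ± 0.22 log2 units (SE, limma unadjusted p = 0.0491, adjusted p = 0.794). Cxcl2, a close relative of Cxcl1, had 1.52, 3.17 and 2.98 FPKM in HCD and 4.73, 2.15 and 6.79 FPKM in ND tumours, a difference of -0.58 log2 units with overlap through ND 2.

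Cxcl3 and Cxcl5 were more abundant. Cxcl3 had 22.6, 19.1 and 18.6 FPKM in HCD tumours and 23.7, 17.8 and 23.3 FPKM in ND tumours, so that its levels were nearly flat (difference -0.10 ± 0.13 log2 units, SE; limma adjusted p = 0.870). Cxcl5 had 11.6, 9.68 and 11.2 FPKM in HCD tumours and 20.0, 9.59 and 13.5 FPKM in ND tumours, with ND 1 well above the rest (difference -0.32 ± 0.24 log2 units, SE; limma adjusted p = 0.799). Cxcl15, described as lungkine in the mouse lung, was the exception of this group. It had 32.8, 14.6 and 32.0 FPKM in HCD tumours and 25.2, 24.7 and 9.35 FPKM in ND tumours, a difference of 0.44 ± 0.46 log2 units (SE, limma adjusted p = 0.841). HCD 2 and ND 3, where Cxcl9 was highest, had the lowest Cxcl15.

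The neutrophil receptor Cxcr2 was paired here with Cxcl1, Cxcl2, Cxcl3 and Cxcl5, and Cxcl15 was paired with no receptor. Cxcr2 had 1.36, 1.33 and 1.17 FPKM in HCD tumours, against 3.19, 1.38 and 2.53 FPKM in ND tumours. The values rest on 146, 143 and 129 fragments in HCD and on 384, 190 and 275 in ND libraries. The 3 HCD tumours were nearly equal and below all ND tumours, but ND 2 exceeded HCD 1 by little (difference -0.52 ± 0.21 log2 units, SE; limma unadjusted p = 0.0449, adjusted p = 0.794). Cxcr2 and Cxcl1 were the 2 tested members whose diets did not overlap with HCD lower (4.55% of 44), beside 6.13% of all genes. No member lay wholly higher in HCD, beside 5.98% of all genes. The related receptor Cxcr1 was close to 0, at up to 0.0191 FPKM in HCD and 0.119 FPKM in ND tumours.

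Neutrophil markers did not share 1 pattern. Their summed level was 40.8, 39.1 and 38.3 FPKM in HCD 1 to 3 and 94.5, 39.1 and 101 FPKM in ND 1 to 3, so ND 1 and ND 3 stood apart and ND 2 matched the HCD tumours, as in Cxcr2. Of 8 listed genes 5 were tested, 4 of them with a lower mean in HCD tumours. S100a9, an abundant neutrophil protein, had 18.0, 20.4 and 19.9 FPKM in HCD and 61.2, 19.1 and 60.2 FPKM in ND tumours, and with S100a8 it made up most of the sum in ND 1 and ND 3. The other markers did not repeat this split: Ngp was highest in HCD 1, and Retnlg in HCD 1 (6.38 FPKM) exceeded ND 1 (5.83 FPKM). Csf3r in ND 2 (8.16 FPKM) exceeded all HCD tumours, so its diets did not overlap, with HCD lower. The Csf3r difference was -0.47 ± 0.16 log2 units (SE, limma unadjusted p = 0.0240, adjusted p = 0.794). Ly6g, the defining neutrophil surface marker, was at 0 in HCD 2 and at most 1.12 FPKM elsewhere, in HCD 3. The neutrophil part in the Cxcr2 and ELR ligand values was not tested. The C5a receptor C5ar1, which lies outside the chemokine name rule and is carried by neutrophils and macrophages, had 0.705, 1.57 and 0.971 FPKM in HCD and 1.90, 2.27 and 1.77 FPKM in ND tumours (difference -0.53 ± 0.17 log2 units, SE; limma unadjusted p = 0.0170, adjusted p = 0.794). Fpr1 and Fpr2, further neutrophil receptors from the same list and named after their values were seen, differed by -0.03 and 0.11 log2 units and peaked in HCD 2 (8.02 and 6.90 FPKM).

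**Figure D4:**
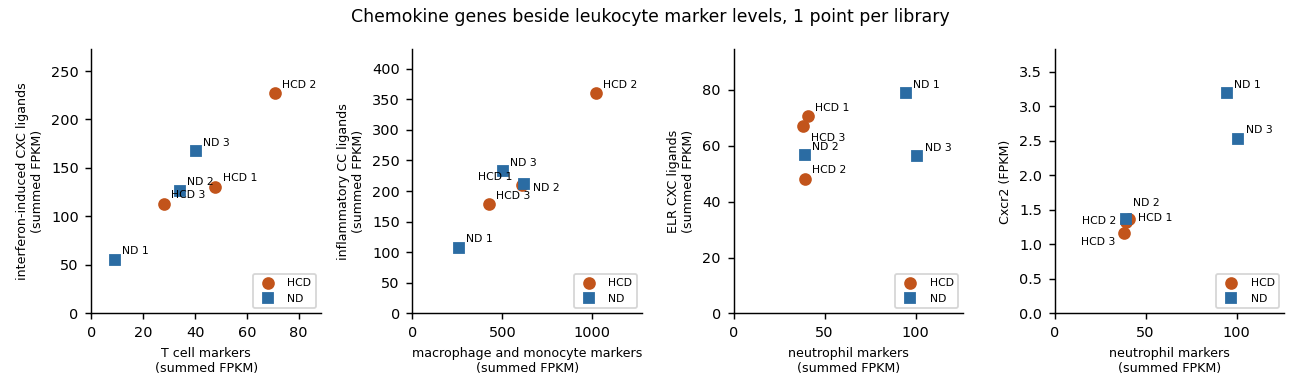
Summed FPKM of chemokine classes, and FPKM of Cxcr2 (vertical axes), against the summed FPKM of leukocyte marker lists (horizontal axes), with 1 point per library (HCD circles, ND squares). HCD 2 is farthest right and ND 1 farthest left for the T cell and macrophage lists, while ND 1 and ND 3 stand apart for the summed neutrophil markers and for Cxcr2.

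Cx3cl1 was the member with the lowest unadjusted p. It is a membrane-bound ligand made by endothelial and epithelial cells, and its receptor Cx3cr1 marks macrophages and patrolling monocytes. Cx3cl1 had 16.7, 16.7 and 13.8 FPKM in HCD tumours, against 10.3, 14.7 and 11.5 FPKM in ND tumours. HCD 1 and HCD 2 exceeded all ND tumours, while HCD 3 lay below ND 2. The difference was 0.36 ± 0.14 log2 units with an unadjusted 95% interval of 0.02 to 0.70 (SE, limma unadjusted p = 0.0421, adjusted p = 0.794). Endothelial markers summed to 65.6, 116 and 65.0 FPKM in HCD and to 53.5, 63.4 and 68.0 FPKM in ND tumours; all 7 had a higher mean in HCD, and their part in Cx3cl1 was not tested. Cx3cr1 had 2.29, 3.81 and 1.31 FPKM in HCD tumours and 1.54, 2.44 and 2.13 FPKM in ND tumours, with HCD 3 lowest and HCD 2 highest, and differed by 0.14 ± 0.27 log2 units (SE, limma adjusted p = 0.910).

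Cxcl12, a stromal ligand that holds cells in place through Cxcr4, had 2.19, 4.62 and 1.52 FPKM in HCD tumours, against 2.58, 2.06 and 3.05 FPKM in ND tumours. The HCD tumours spanned the whole range of the ND tumours, and the difference was 0.01 ± 0.30 log2 units (SE, limma adjusted p = 0.996). Its direction turned under several settings, among them a pseudocount of 0.1 (-0.019) and upper-quartile scaling (-0.0040). Cxcr4, present on most leukocytes and on many tumour cells, had 5.26, 8.92 and 4.13 FPKM in HCD tumours and 4.18, 4.65 and 5.14 FPKM in ND tumours. HCD 2 stood out and HCD 3 was the lowest, so the diets overlapped. Of the tested pairs this one had the lowest ligand level for its receptor, with Cxcl12 at 0.496 times Cxcr4, and Cxcr4 differed by 0.28 ± 0.24 log2 units (SE, limma adjusted p = 0.813). Ackr3, an atypical receptor that removes Cxcl12, had 1.15, 3.23 and 1.12 FPKM in HCD and 3.1, 1.55 and 3.08 FPKM in ND tumours. HCD 2, ND 1 and ND 3 formed its high values, across both diets (difference -0.38 ± 0.33 log2 units, SE; limma adjusted p = 0.813).

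Among the remaining CXC ligands, Cxcl14, an epithelial and stromal chemokine, was the most abundant. It had 28.4, 15.5 and 3.80 FPKM in HCD tumours and 6.31, 27.0 and 18.3 FPKM in ND tumours, and its high values were in HCD 1 and ND 2, the 2 libraries with the most muscle RNA. The difference of -0.25 ± 0.77 log2 units turned to 0.48 without HCD 3 and to 0.16 without ND 2 (SE, limma adjusted p = 0.942 with all libraries). The part of muscle tissue in it was not tested. Cxcl17, a mucosal chemokine, had 1.53, 2.97 and 2.40 FPKM in HCD and 3.34, 1.75 and 5.26 FPKM in ND tumours (difference -0.37 ± 0.32 log2 units, SE; limma adjusted p = 0.813). Cxcl13, which attracts B cells through Cxcr5, had 0.125 to 2.44 FPKM in HCD and 0.532 to 1.60 FPKM in ND tumours.

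The CC ligands of lymphoid and barrier tissue were low. Ccl25, a thymus and gut ligand, was even at 2.73, 2.41 and 2.61 FPKM in HCD and 3.02, 2.87 and 2.43 FPKM in ND tumours, although its receptor Ccr9 averaged only 0.0605 FPKM. Ccl25 differed by -0.07 ± 0.09 log2 units, with an interval of -0.28 to 0.14 (SE, limma adjusted p = 0.862). Ccl17, a dendritic cell product that binds Ccr4, had 3.26, 0.859 and 1.58 FPKM in HCD and 2.73, 1.71 and 4.16 FPKM in ND tumours (difference -0.45 ± 0.36 log2 units, SE; limma adjusted p = 0.805). Ccr4 itself averaged 0.10 FPKM, too low for the test.

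Ccl21a and Ccl21b guide dendritic cells and T cells that carry Ccr7. Ccl21a had 6.61, 2.93 and 0.330 FPKM in HCD tumours (117, 52 and 6 fragments) and 0, 1.40 and 0.557 FPKM in ND tumours (0, 32 and 10 fragments). Only HCD 1 and HCD 2 stood out, and the difference of 1.14 ± 0.66 log2 units did not pass the test (SE, limma adjusted p = 0.794). With a pseudocount of 0.1 it was 2.15, since ND 1 had no fragment, and it was 0.56 without HCD 1 and 1.82 without HCD 3. Ccl21b followed at 5.87, 3.78 and 0 FPKM in HCD and 0, 0.664 and 0.362 FPKM in ND tumours. These 2 genes are near-identical copies with further copies on unplaced sequence, so the split of reads between them is uncertain. Ccr7 differed little, at 2.05 to 2.29 FPKM in HCD and 1.19 to 2.37 FPKM in ND tumours, and B cell markers, which also mark lymphoid tissue, summed to 25.8, 41.7 and 4.40 FPKM in HCD and to 2.92, 22.9 and 6.24 FPKM in ND tumours. The part of lymphoid tissue in these values was not tested.

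The last receptors had low levels. Xcr1, found on cross-presenting dendritic cells, had 0.806, 1.64 and 0.515 FPKM in HCD and 0.393, 1.32 and 0.577 FPKM in ND tumours (difference 0.17 ± 0.27 log2 units, SE; limma adjusted p = 0.892). Its ligand Xcl1 lay between 0.281 and 0.823 FPKM in HCD and between 0.0837 and 0.802 FPKM in ND tumours. Ccrl2, an atypical receptor that holds the attractant chemerin on the cell surface, had 1.30, 2.32 and 1.8 FPKM in HCD and 1.06, 1.24 and 2.28 FPKM in ND tumours (difference 0.16 ± 0.22 log2 units, SE; limma adjusted p = 0.868). The receptors Ccr3, Ccr4, Ccr6, Ccr9, Cxcr1, Cxcr5, Ackr1, Ackr2 and Ackr4 were not tested.

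Set side by side, 25 of 43 known ligand and receptor pairs had both genes tested, covering 21 ligands and 12 receptors. The ligand had the higher deposited FPKM in 22 of the 25, with the widest gap for Ccl8 over Ccr8 (113 times). Gene lengths behind the deposited FPKM exceed the merged exon length for some ligands and some receptors, so ratios within a pair depend on them. Both genes had a higher mean in HCD tumours in 11 pairs and a lower mean in 6, so 17 shared their direction. In 17 pairs ligand and receptor were highest in the same library, and in 11 they were lowest in the same library. Several pairs share a gene, and all share the 6 libraries, so these counts are a description without a test.

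Genes of chemokine receptor signalling also had no call. Of 31 tested, 22 averaged higher in HCD tumours and 9 lower, with a median difference of 0.20 log2 units and none at an unadjusted p under 0.05. The 3 most abundant are given by their ranges. Rac1, a GTPase of cell movement, had 94.8 to 95.3 FPKM in HCD and 94.9 to 102 FPKM in ND tumours, and the G protein subunit Gnai3 had 83.9 to 89.0 FPKM in HCD and 82.4 to 86.1 FPKM in ND tumours. The kinase Jak2 had 71.0 to 83.0 FPKM in HCD and 74.9 to 101 FPKM in ND tumours. Among 12 related genes outside the name rule, 8 averaged higher in HCD tumours and 4 lower. Mif, a cytokine that binds Cxcr2 and Cxcr4, had 170, 165 and 167 FPKM in HCD tumours and 157, 158 and 158 FPKM in ND tumours. Its groups did not overlap, but the difference was only 0.09 ± 0.05 log2 units (SE, limma adjusted p = 0.794). The platelet chemokines Ppbp and Pf4 differed by 0.20 and 0.01 log2 units.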

How the data were processed

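Gene levels were deposited by the authors as FPKM for 34745 mouse Ensembl gene IDs, 1 column per tumour, per the file headers. Per the submitters' processing notes, CASAVA 1.8, TopHat2 2.0.9, HTSeq, edgeR and build mm10 were used, with no role given for each. Per the labels' protocols, RNA came from RNeasy columns and TruSeq paired-end libraries were made from it.

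Here, log2(FPKM + 1) was fitted with limma 3.58.1 (R 4.3.3) for the 13417 genes that averaged 0.5 FPKM or more. The model held diet alone and a variance trend; tests were two-sided and p-values were adjusted by Benjamini-Hochberg, with calls at 0.05. This scale understates changes of low genes. The fit was checked on simulated data. Because FPKM values fall on whole-read steps, library sizes and reads were recovered (within 0.02 of a whole number); all 44 tested members gave whole reads in every library. Reads are printed only where the recovered length equals the GENCODE M21 exon sum. Gene IDs were matched to M21 (34344 of 34745); promoter bases are from RefSeq.

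The members, gene lists, pairs and naming rule were chosen with earlier results of these data known. The rule named the 3 most abundant tested genes of each class, those with an unadjusted p under 0.05 or with groups that did not overlap, and 13 standard members; of the signalling and related lists, the 3 most abundant each and those with an unadjusted p under 0.05. Others are given by their range. In addition, 1 tested member is included in the counts but not reported here.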

Additional observations from a re-analysis of the deposited data

How the results depend on the processing

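Under 14 other settings (pseudocount, filters, scaling, variance trend, replicate block, libraries left out) no chemokine or receptor gene was called, and the lowest adjusted p of the 30 members under the naming rule was 0.396. Leaving out single libraries gave 0 to 1 genes called lower in HCD over all genes (S100a9, without ND 2) and 0 called higher. It gave 21 to 28 members with a higher mean in HCD and a median difference of -0.035 to 0.27. At an unadjusted p under 0.05, the 3 members became 0 without HCD 1, ND 1 or ND 3, 9 without ND 2, 8 without HCD 1 and ND 2, 5 with the replicate block, and 2 without a filter (of 64), under median-ratio scaling or without the variance trend. The 789 genes of all became 640 without HCD 1, 388 without ND 1, 485 without ND 3 and 1274 without a filter. They became 753 with the replicate block, 733 under median-ratio scaling and 776 without the variance trend. The all-gene counts for the 2 settings without ND 2 are not given here, so the 9 and the 8 are not results about the members. Of those 30, 20 kept their direction in every setting and 10 did not. Of the 20, 19 moved by over 1.5 times in size when some single library was left out. With single libraries left out, those 10 ranged from -0.32 to 0.26 (Cxcl12), -0.23 to 0.087 (Ccr1), -0.39 to 0.053 (Ccl2), -0.035 to 0.41 (Ccr2), -0.13 to 0.40 (Cx3cr1), -0.057 to 0.38 (Xcr1), -0.0072 to 0.40 (Ccl24), -0.83 to 0.48 (Cxcl14), -0.095 to 0.42 (Cxcl10) and -0.00088 to 0.81 (Cxcl15) log2 units. Cxcl12 was also -0.019 at a pseudocount of 0.1 and -0.0040 under upper-quartile scaling. Without HCD 1 and ND 2, the libraries with the most muscle RNA (a choice made after seeing the data), Cxcl12 was -0.018, Ccr1 0.11 and Ccl2 0.23. The cause of these turns was not tested. Same-numbered tumours did not deviate together (correlations -0.19, 0.14 and 0.06). Deviations of only 3 tumours a group cannot decide whether the numbers pair them. With the replicate block, 0 members were called, 27 had a higher mean and the median was 0.16. With 3 tumours a group and this spread, the unadjusted 95% intervals above give the differences that were not excluded.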
